A study of Mus musculus with 5 samples.

Results

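The genes described here make ribosomes. They encode RNA polymerase I and its factors, the small nucleolar ribonucleoproteins, abundant nucleolar proteins and the factors that assemble both ribosomal subunits. They were chosen by name for these roles, with earlier results of these data known, and so are not a choice independent of the data. They are 41 of the 49341 mouse genes to which the deposited transcripts were assigned. The macrophages had been grown for 6 days from the marrow of wild type C57BL/6 mice, in medium with CSF1 or with supernatant of L929 cells, and 96% of them carried F4/80 and CD11b, per the labels. All 5 libraries came from cells given 10 ng/ml IL-4 for 24 h, so interleukin 4, the cytokine of alternative (M2) macrophage activation, is shared by both groups. Before IL-4, the cells of 3 libraries (replicates 3, 4 and 5) had received 30 µM CBR-5884, an inhibitor of PHGDH, the first enzyme of serine synthesis, and the cells of 2 libraries (replicates 3 and 5) solvent. The comparison asks how this inhibitor changes gene expression in macrophages that respond to IL-4. Nothing in the labels ties the replicates to different animals or cultures, so p-values here reflect only how much these libraries vary, a variation that may be technical.

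Ribosome assembly starts in the nucleolus, where RNA polymerase I transcribes the ribosomal RNA precursor. Small nucleolar ribonucleoproteins of the C/D box class guide its methylation and those of the H/ACA box class its pseudouridylation, while large protein assemblies fold, cut and trim it into the RNA of the small and the large subunit. Cells that grow or divide need many new ribosomes, and the transcription factor MYC, which binds the E-box CACGTG, is known to drive many of these genes.

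Of the 36 members searched, 7 held an E-box match. The promoter sequences below are that of the called gene and, from these 7, those of the members with the smallest limma p. Each is the 250 bases before the RefSeq transcription start, 5′ to 3′ on the plus strand of GRCm38.p6, with any CACGTG in capitals. Dkc1 (chrX:75095604-75095853) is the 1 called gene and holds no match, Nop2 (chr6:125131633-125131882) holds 1, and Rrn3 (chr16:13780449-13780698), the gene whose CBR-5884 libraries all lay above both solvent libraries by summed FPKM, holds 2.
Dkc1: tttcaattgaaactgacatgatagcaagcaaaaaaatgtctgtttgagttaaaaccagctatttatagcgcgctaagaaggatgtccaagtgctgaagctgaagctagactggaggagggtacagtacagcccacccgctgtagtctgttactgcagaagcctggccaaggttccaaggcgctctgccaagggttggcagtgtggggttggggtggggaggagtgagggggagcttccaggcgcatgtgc
Nop2: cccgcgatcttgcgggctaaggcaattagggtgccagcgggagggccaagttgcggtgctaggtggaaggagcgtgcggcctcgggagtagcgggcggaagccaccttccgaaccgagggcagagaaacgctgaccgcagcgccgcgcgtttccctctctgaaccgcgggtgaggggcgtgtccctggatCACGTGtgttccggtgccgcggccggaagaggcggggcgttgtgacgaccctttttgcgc
Rrn3: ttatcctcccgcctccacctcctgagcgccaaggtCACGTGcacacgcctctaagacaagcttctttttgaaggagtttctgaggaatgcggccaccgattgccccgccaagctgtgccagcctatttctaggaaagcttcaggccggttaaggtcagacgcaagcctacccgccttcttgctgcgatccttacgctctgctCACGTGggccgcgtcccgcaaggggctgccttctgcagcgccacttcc
The RefSeq promoter table matched 36 of the 41 genes. In windows from 250 bases before to 50 after the start, CACGTG (the same on both strands) was found in 7 of the 36 genes (19.4%), in 12.5% of all genes tested for expression and in 8.1% of all genes of the table. GGGCGG, the GC box, searched on both strands, was in 69.4% of the members, 69.8% of tested genes and 38.2% of all genes, and TATAAA, also on both strands, in 5.6%, 8.4% and 15.7%. The Dkc1 window held 1 TATAAA and no GC box. Of the 10 matched members with an unadjusted limma p below 0.05 and lower values with CBR-5884, 0 held CACGTG. These matches describe the letters in the windows and not binding.

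Coverage implied a depth of 30230000 to 30700000 fragments in the treated libraries and of 28310000 to 28850000 in the solvent libraries, and Pearson's r across genes was 0.984 to 0.985 within groups and 0.978 to 0.981 between them. The defining macrophage markers were well above 0 in every library, with Adgre1, which encodes F4/80, at 299 to 338 FPKM with CBR-5884 and 307 to 313 with solvent, and Itgam, which encodes CD11b, at 199 to 221 and 158 to 182. FPKM counts fragments per kilobase of transcript for each 1000000 mapped fragments, summed here over the transcripts of a gene. Values below list CBR-5884 replicates 3, 4 and 5, the treated libraries, and then solvent replicates 3 and 5. Log2 fold changes are CBR-5884 minus solvent of log2(FPKM + 1), and since 1 is added they understate changes in genes of low level. They come with the standard error (SE) and the p-values of limma, and a called gene is one whose adjusted p, over the 10770 genes tested, was below 0.05.

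Most of these 41 ribosome biogenesis genes had somewhat lower RNA levels with CBR-5884 than with solvent, by differences that, apart from Dkc1, were not called. A wider list of 124 other genes of the pathway, described below, had a median near that of all tested genes. Of the 41 genes, 40 passed the filter of a mean of at least 1 FPKM. Fold changes were negative in 35 of these and positive in 5, and their median was -0.17, where 55.7% of all tested genes were negative and their median was -0.03. Only Dkc1 was called by limma, as lower, against 0.176% of all tested genes called lower and 0.0464% called higher. That call was lost with a pseudocount of 0.1 (limma adjusted p = 0.0575) and with a replicate block (limma adjusted p = 0.331). Dkc1 passed the filter through the solvent libraries alone, and the median over the 39 genes above 0 in every library was -0.17 as well. In bulk RNA, fewer cells of a type and less RNA per cell cannot be told apart.

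An unadjusted limma p below 0.05 with lower values was reached by 12 of the 40 genes, against 12.4% of all tested genes, and one with higher values by 0, against 7.24%. In 18 genes (45.0%) all 3 CBR-5884 libraries lay below both solvent libraries, a pattern of 24.9% of all tested genes. In 1 gene, Rrn3, they all lay above, a pattern of 16.6% of tested genes, and in 21 genes the groups overlapped. Dkc1, listed at 0 in the treated libraries, is among the 12, the 18 and the 35 with negative fold changes. When genes listed at 0 were left out and the fit repeated, 34 of 39 members were negative. In that fit 12 had an unadjusted limma p below 0.05 with lower values, against 1341 of 10317 genes. Over the 40 genes, the count of 12 was 8 without CBR-5884 replicate 3, 16 without CBR-5884 replicate 4 and 6 without CBR-5884 replicate 5. In the same order, the count of 1334 over all tested genes became 963, 1132 and 1130. With reference transcripts alone, 9 members and 823 of 10098 tested genes were lower at that p. By the most abundant reference transcript, 7 members and 698 of 9912 tested genes were. The direction of all genes depends on scaling. The 1334 lower and 780 higher genes at an unadjusted p below 0.05 became 1017 and 1170 on the TPM scale, where 11797 genes passed the filter. They became 945 and 1163 with quantile normalization and 1003 and 1091 with median ratios, each over 10770 genes. On the TPM scale, with quantile normalization and with median ratios, 30, 30 and 31 of the 40 members were negative. The members' median stayed below that of all genes by -0.14, -0.13 and -0.13 in these 3 scalings, compared with -0.14 as deposited, but by only -0.056 when reference transcripts alone were summed and by -0.06 for the most abundant reference transcript.

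**Figure D1:**
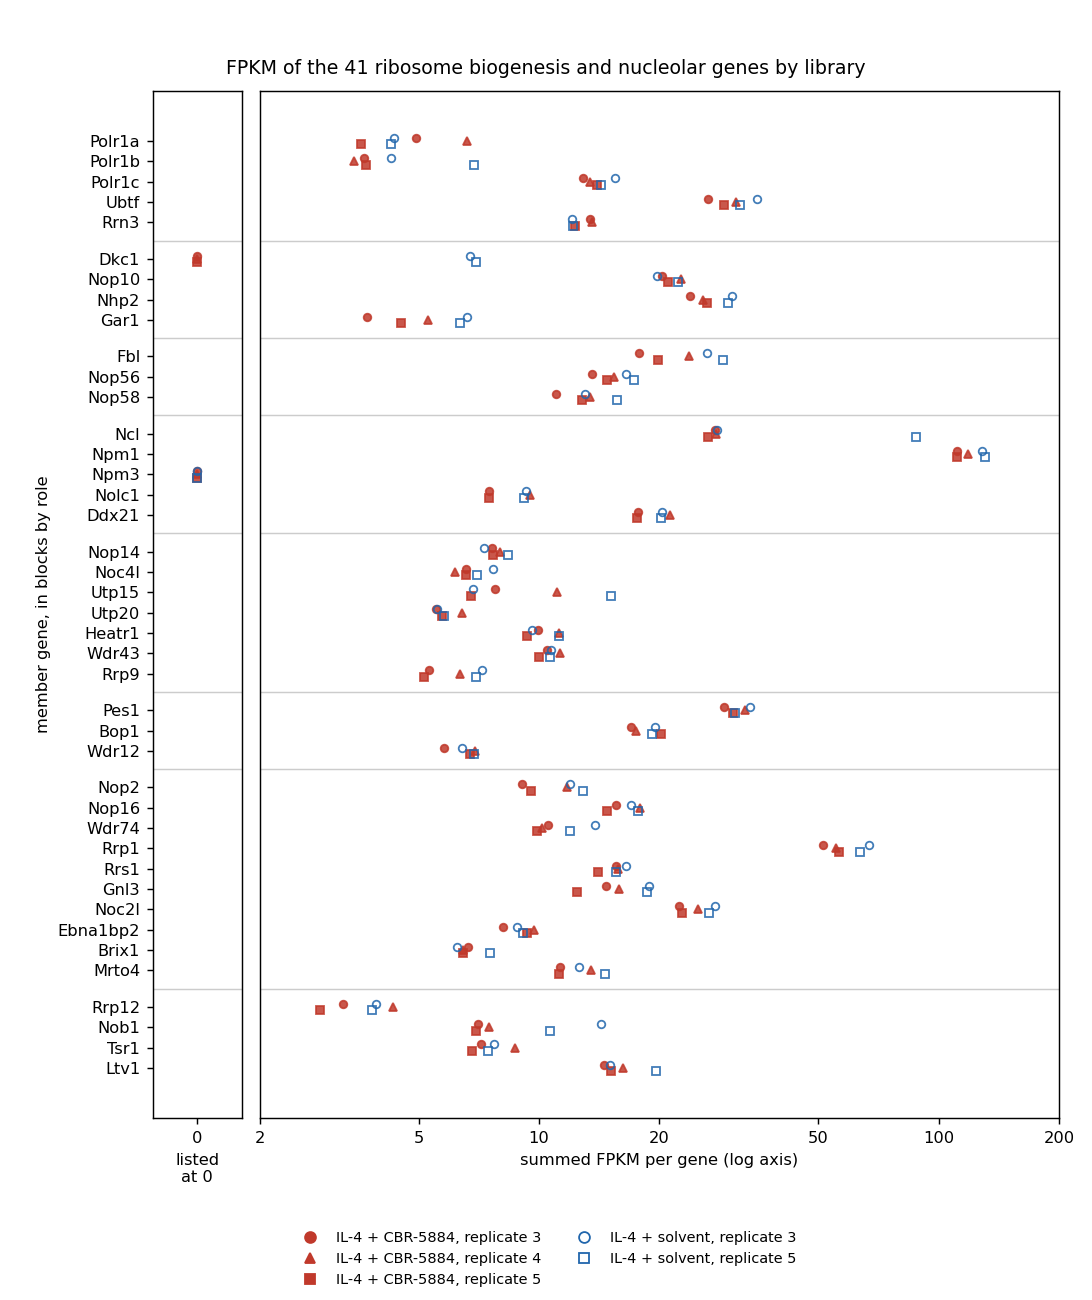
Summed FPKM of each of the 41 genes in each library, on a log axis with a separate panel for values listed at 0. Filled red symbols are the 3 CBR-5884 libraries and open blue symbols the 2 solvent libraries, in blocks by role. The genes above 0 spread from 2.83 FPKM (Rrp12) to 130.1 FPKM (Npm1), Dkc1 is at 0 in the 3 CBR-5884 libraries alone, and Npm3 is at 0 in all 5.

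Among the 5 genes of RNA polymerase I transcription, 3 had negative and 2 positive fold changes, and the median was -0.14. By limma on summed FPKM 0 were called and 0 reached an unadjusted p below 0.05. By the length-weighted value explained below, 2 reached it as lower (all tested genes, 15.8%) and 0 were called. Polr1b, the second largest subunit of the enzyme, had the smallest p of the block. It was at 3.66, 3.44 and 3.70 FPKM in the treated libraries and at 4.25 and 6.88 with solvent, so the groups did not overlap, but the solvent libraries lay farther from each other than solvent replicate 3 lay from any treated library. The log2 fold change was -0.48 (SE 0.19, limma unadjusted p = 0.0559, adjusted p = 0.268). An assembled fragment of 353 nt, present in solvent replicate 5 alone, contributed 2.78 of its 6.88 FPKM. Length-weighted, Polr1b was at 14.6, 13.8 and 14.8 against 17 and 17.4 fragments per 1000000 mapped fragments. By that value the log2 fold change was smaller, -0.24 (limma adjusted p = 0.106).

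Polr1a, the largest subunit (chr6:71909053-71984935), was at 4.93, 6.62 and 3.59 FPKM in the treated libraries and at 4.34 and 4.27 with solvent. The treated libraries spread on both sides of the solvent ones. Its log2 fold change of 0.16 (SE 0.23, limma adjusted p = 0.727) turned to -0.37 when reference transcripts alone were summed. Polr1c, a subunit shared with RNA polymerase III, was at 12.9, 13.4 and 13.9 against 15.5 and 14.3 FPKM. Ubtf, which encodes the architectural factor of ribosomal DNA chromatin, was at 26.5, 31.2 and 29.1 against 35.1 and 31.7 FPKM. Both genes were lower in all 3 treated libraries, but the gap between the nearest libraries of the groups was smaller than the spread inside either group (limma adjusted p of 0.302 and 0.31). Rrn3, the initiation factor that couples the polymerase to growth signals, was at 13.4, 13.6 and 12.3 FPKM in the treated libraries and at 12.1 in both solvent libraries. The log2 fold change was 0.10 (limma adjusted p = 0.421), and by summed FPKM it is the only member in which every treated library exceeded both solvent libraries. Length-weighted to allow for transcript length, as explained below, its groups overlapped.

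The H/ACA box ribonucleoprotein block held the 1 called gene, and the median over its 3 genes above 0 in every library was -0.24 (-0.35 with Dkc1). Dkc1 encodes dyskerin, the pseudouridine synthase of the particle and a part of telomerase. Solvent replicates 3 and 5 held 6.74 and 6.96 FPKM of it, while all 3 treated libraries listed it at 0 (limma adjusted p = 0.00396). No fold is given, since a listed 0 can be a failed estimate. The 95% upper bounds deposited with the 3 zeros were 0.0221, 0.0222 and 0.0216 FPKM, and the solvent values correspond to 545 and 552 implied fragments.

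Several values bear on how the zeros of Dkc1 read. The gene (chrX:75095854-75109777, plus strand) had 1 reference transcript in the files, of 2804 nt and 15 exons, and no assembled transcript in any library. Cufflinks marks whether reads cover a transcript in full. It marked Dkc1 as covered in CBR-5884 replicate 4, where the value was 0, and in both solvent libraries, but not in CBR-5884 replicates 3 and 5. Of all reference transcripts listed at 0, 12.0% to 12.5% per library carried that mark. Dkc1 was 1 of 16 genes at 0 in every CBR-5884 library and above 1 FPKM in both solvent libraries, and 13 genes had the reverse pattern. Of the 19 genes called lower, 13 were at 0 in a library. Its exons overlap those of Mpp1 on the opposite strand by 45 nt, and Mpp1 averaged 96.3 FPKM. Whether the zeros stand for absent RNA was not tested.

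The other proteins of the H/ACA particle had values above 0 throughout. Nhp2, an RNA-binding core protein, was at 23.8, 25.7 and 26.3 FPKM in the treated libraries and at 30.5 and 29.6 with solvent. The gap between the groups was wider than the spread inside either, with a log2 fold change of -0.24 (SE 0.06, limma unadjusted p = 0.012, adjusted p = 0.162). Gar1, the core protein that helps release the modified RNA, was at 3.72, 5.29 and 4.53 against 6.62 and 6.36 FPKM, a log2 fold change of -0.45 (SE 0.14, limma unadjusted p = 0.0259, adjusted p = 0.203). It rested on 144 to 243 implied fragments per library, the fewest of any member above 0. Nop10, the small core protein that binds dyskerin, was at 20.4, 22.6 and 21.01 against 19.7 and 22.3 FPKM, with overlapping groups and a fold change of 0.02.

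All 3 proteins of the C/D box ribonucleoprotein had negative fold changes, and 0 were called. Fbl encodes fibrillarin, the methyltransferase of the particle. It was at 17.8, 23.7 and 19.8 FPKM in the treated libraries and at 26.4 and 28.8 with solvent. Every treated library lay below both solvent ones although the treated libraries differed widely, and the log2 fold change was -0.42 (SE 0.13, limma unadjusted p = 0.0281, adjusted p = 0.211). Nop56, a scaffold protein, was at 13.6, 15.4 and 14.8 against 16.5 and 17.3 FPKM, a log2 fold change of -0.20 (limma unadjusted p = 0.0415, adjusted p = 0.242). Its partner Nop58 was at 11.0, 13.4 and 12.8 against 13.0 and 15.7 FPKM, with overlapping groups (limma adjusted p = 0.434).

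The abundant nucleolar proteins included the highest member and a gene whose value depended on 1 library. Npm1, nucleophosmin, a histone chaperone that organizes the outer nucleolus, was at 110.7, 118 and 110.8 FPKM in the treated libraries and at 128 and 130.1 with solvent. It was the most abundant of the 41 genes per length, and its groups did not overlap, with a log2 fold change of -0.19 (SE 0.05, limma unadjusted p = 0.0148, adjusted p = 0.171). Its family member Npm3 (chr19:45747734-45749591) was listed at 0 in all 5 libraries, each of which marked its transcript of 888 nt as fully covered by reads, so these zeros were not read as absence. Nolc1, a phosphoprotein that accompanies small nucleolar ribonucleoproteins, was at 7.51, 9.52 and 7.48 against 9.30 and 9.16 FPKM, and the log2 fold change of -0.17 (limma adjusted p = 0.483) became 0.58 with reference transcripts alone. Ddx21, an RNA helicase of ribosomal RNA transcription and processing, was at 17.7, 21.2 and 17.6 against 20.3 and 20.2 FPKM. In Nolc1 and Ddx21, CBR-5884 replicate 4 exceeded both solvent libraries and replicates 3 and 5 lay below them.

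Ncl encodes nucleolin, an RNA-binding protein of ribosomal RNA transcription and early processing (chr1:86344719-86359400, minus strand). It was at 27.5, 27.7 and 26.5 FPKM in the treated libraries and at 27.9 and 87.5 with solvent. The 4 libraries other than solvent replicate 5 lay within a narrow range. The log2 fold change of -0.84 (SE 0.49, limma adjusted p = 0.412) therefore rested on that library, and became 0.73 with reference transcripts alone and -1.65 without solvent replicate 3 (limma adjusted p = 0.00999). In solvent replicate 5, 78.4 FPKM stood on an assembled transcript of 2032 nt and 13 exons, and 9.08 on the reference transcript of 8202 nt that carried all of the value elsewhere.

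FPKM divides by transcript length, so the same fragments give a higher FPKM on a shorter transcript. Another value, chosen after the data were seen, weights each transcript's FPKM by its length in kilobases and so states the gene's fragments per 1000000 mapped fragments (FPM). By this value the treated libraries held 226, 228 and 217 FPM of Ncl and the solvent ones 229 and 234, a log2 fold change of -0.05 on the log2(value + 1) scale (limma adjusted p = 0.529). The solvent libraries thus differed little once transcript length was weighted. Over the members the length-weighted value gave 33 negative and 7 positive fold changes with a median of -0.16, and again called Dkc1 alone, against 1.68% of tested genes called lower. It placed all treated libraries below both solvent libraries in 18 members (45.0%; all tested genes, 27.6%), and 14 members reached an unadjusted limma p below 0.05 with lower values (all tested genes, 15.8%). Dkc1 is included in these counts.

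**Figure D2:**
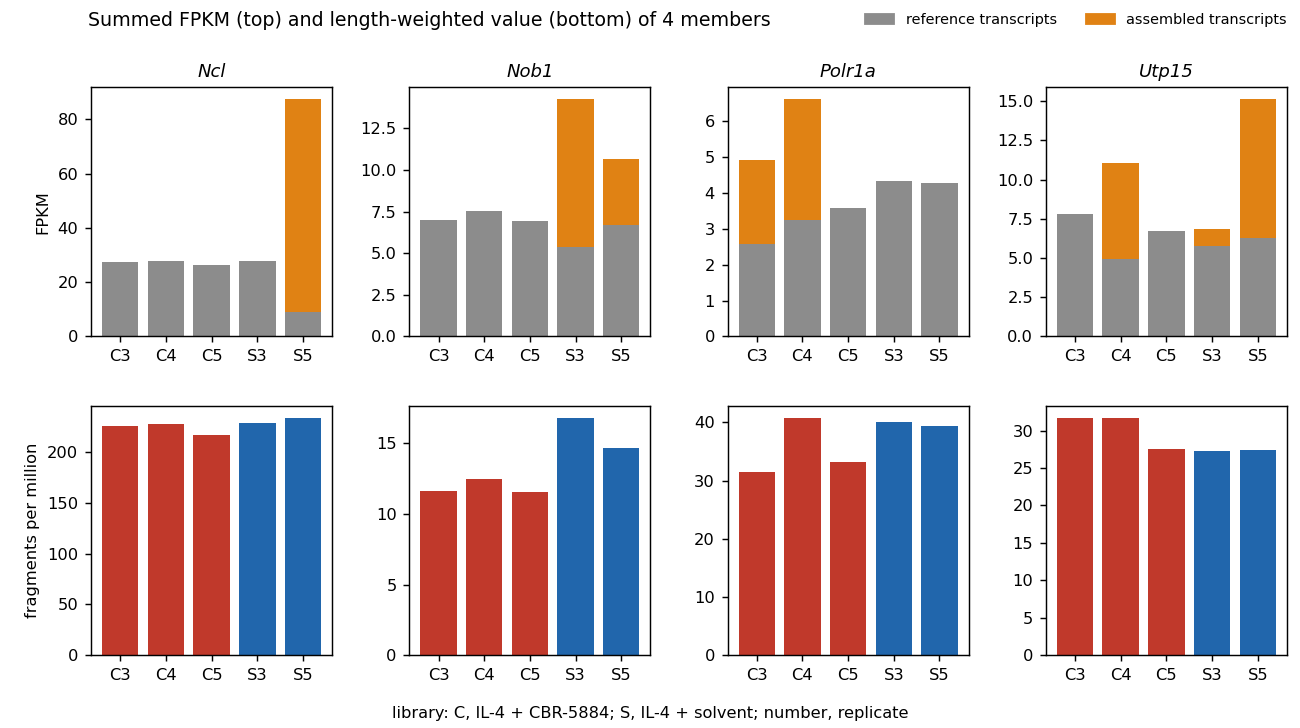
Top, summed FPKM of Ncl, Nob1, Polr1a and Utp15 in each library (C, CBR-5884; S, solvent; the number is the replicate), split into reference transcripts (grey) and assembled transcripts (orange). Bottom, the length-weighted value in FPM, red for CBR-5884 and blue for solvent, where Ncl in solvent replicate 5 stands at 234 beside 217 to 229 in the other 4 libraries.

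The small subunit processome, which cuts and folds the RNA of the small subunit, had a median of -0.03 over 7 genes, 6 negative and 1 positive. In 2 of them (28.6%) every treated library lay below both solvent ones, near the 24.9% of all tested genes. Rrp9, a protein of the U3 small nucleolar particle, was at 5.31, 6.35 and 5.15 FPKM in the treated libraries and at 7.21 and 6.96 with solvent. No other gene of the block had an unadjusted limma p below 0.05. Its log2 fold change was -0.30 with an SE of 0.10 (limma unadjusted p = 0.0354, adjusted p = 0.226). Noc4l, a nucleolar assembly factor, was at 6.58, 6.16 and 6.57 against 7.68 and 7.01 FPKM, apart between groups but with a limma adjusted p of 0.278.

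Utp15, a WD-repeat subunit that links the processome to polymerase I transcription (chr13:98246845-98263041), was at 7.78, 11.1 and 6.75 FPKM in the treated libraries and at 6.82 and 15.1 with solvent. The 2 high libraries were those in which assembled transcripts held a large part of the value. The log2 fold change of Utp15 was -0.26 (SE 0.38, limma adjusted p = 0.727), 0.26 without solvent replicate 5 and 0.08 with reference transcripts alone. Length-weighted, it was at 31.7, 31.6 and 27.5 against 27.3 and 27.4 FPM, so that the treated libraries lay above the solvent ones by that value and overlapped them by the other. Heatr1, a large scaffold protein, was at 9.93, 11.2 and 9.35 against 9.60 and 11.2 FPKM, and its log2 fold change of -0.03 was 0.04 with reference transcripts alone and -1.47 (limma adjusted p = 0.462) once an assembled fragment of 138 nt in solvent replicate 5 was counted. Nop14, Utp20 and Wdr43, the remaining subunits, had fold changes of -0.01, 0.05 and -0.01, with overlapping groups and limma adjusted p of 0.777 to 0.948.

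The PeBoW complex, which is needed to process the RNA of the large subunit, did not separate the groups in any of its 3 genes, and its median was -0.07. Bop1 had the smallest p. It was at 17.0, 17.5 and 20.2 FPKM in the treated libraries and at 19.5 and 19.2 with solvent, a log2 fold change of -0.08 with a 95% interval of -0.31 to 0.15 (limma unadjusted p = 0.39, adjusted p = 0.633). One treated library exceeded both solvent libraries. Pes1 and Wdr12 had fold changes of -0.07 and -0.04, with intervals of -0.26 to 0.13 and -0.28 to 0.21, so both directions lay within the intervals.

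The other 10 large subunit assembly factors had 9 negative and 1 positive fold change, with a median of -0.19. Every treated library lay below both solvent ones in 5 of them (50%), against 24.9% of all tested genes. Rrp1, a factor of early large subunit particles, was at 51.5, 55.4 and 56.1 FPKM in the treated libraries and at 66.8 and 63.6 with solvent. The fold change of -0.26 on the log2 scale (SE 0.06) had the smallest unadjusted p of the block (0.00927, limma adjusted p = 0.15). Wdr74, a WD-repeat factor that works with the particle's remodelling ATPase, was at 10.6, 10.2 and 9.89 against 13.8 and 11.9 FPKM, a log2 fold change of -0.31 (SE 0.08, limma unadjusted p = 0.0141, adjusted p = 0.169). With reference transcripts alone the fold change of Wdr74 was 0.06, because 2 assembled transcripts in solvent replicate 3 were left out, while the length-weighted value kept it at -0.29.

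Gnl3, nucleostemin, a nucleolar GTPase abundant in dividing cells, was at 14.7, 15.8 and 12.5 FPKM in the treated libraries and at 18.9 and 18.6 with solvent (log2 fold change -0.37, SE 0.11, limma unadjusted p = 0.0217, adjusted p = 0.19). Part of this gap came from assembled fragments of 285 and 344 nt in the solvent libraries, which held 4.37 and 3.60 FPKM. Length-weighted, Gnl3 was at 27.7, 29.8 and 23.5 against 28.6 and 29.6 FPM, with overlapping groups and a log2 fold change of -0.11. Noc2l, an assembly factor that also binds histones, was at 22.4, 25.0 and 22.8 against 27.6 and 26.6 FPKM, a log2 fold change of -0.21 (SE 0.07, limma unadjusted p = 0.0303, adjusted p = 0.216). Its groups were apart, but 598 nt of its exons overlap Samd11 on the opposite strand. Since the strand setting is not given in the sources used here, reads of the pair cannot be told apart with certainty. Nop2, a methyltransferase of the large subunit RNA, was at 9.05, 11.8 and 9.54 against 12.0 and 12.9 FPKM (log2 fold change -0.28, limma adjusted p = 0.309), also apart.

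The remaining factors of this block, Nop16, Rrs1, Ebna1bp2, Brix1 and Mrto4, had fold changes of -0.17 (Mrto4) to 0.01 (Ebna1bp2), and their groups overlapped. Brix1 was at 6.63, 6.44 and 6.45 FPKM against 6.25 and 7.55, and its direction turned to 0.05 without solvent replicate 5.

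Late assembly of the small subunit was represented by 4 genes, all with negative fold changes and a median of -0.15. Nob1, the nuclease that makes the last cut of the small subunit RNA (chr8:107412486-107425051), was at 7.02, 7.52 and 6.96 FPKM in the treated libraries and at 14.3 and 10.7 with solvent. It had the smallest unadjusted p of the members above 0 in every library (0.00399; log2 fold change -0.71, SE 0.13, limma adjusted p = 0.132), with the treated libraries close together and the solvent ones far apart. Assembled transcripts of 873, 930 and 899 nt held 6.83 and 2.06 FPKM in solvent replicate 3 and 3.94 in solvent replicate 5, and none held any with CBR-5884. Length-weighted, Nob1 was at 11.6, 12.5 and 11.5 against 16.8 and 14.7 FPM, a log2 fold change of -0.37 (limma adjusted p = 0.0755). With reference transcripts alone it was 0.22. The groups thus remained apart by the length-weighted value with a smaller gap, and changed order when assembled transcripts were left out.

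Rrp12, an export factor of both subunits and the lowest member above 0 in every library, was at 3.23, 4.32 and 2.83 FPKM in the treated libraries and at 3.92 and 3.82 with solvent, with overlapping groups (limma adjusted p = 0.658). Length-weighted, it was at 12.8, 15.8 and 12.2 against 16.9 and 16.5 FPM, so that by this value every treated library lay below both solvent ones (log2 fold change -0.29, limma adjusted p = 0.195). Ltv1, an assembly factor of the small subunit head, was at 14.5, 16.2 and 15.2 against 15.0 and 19.6 FPKM. Its high solvent library held an assembled fragment of 296 nt with 4.84 FPKM, and the log2 fold change of -0.16 was 0.04 with reference transcripts alone and 0.00 when length-weighted (0.002). Tsr1, a GTPase-like factor of the late particle, had a log2 fold change of -0.01, and 1240 nt of its exons overlap Srr on the opposite strand.

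**Figure D3:**
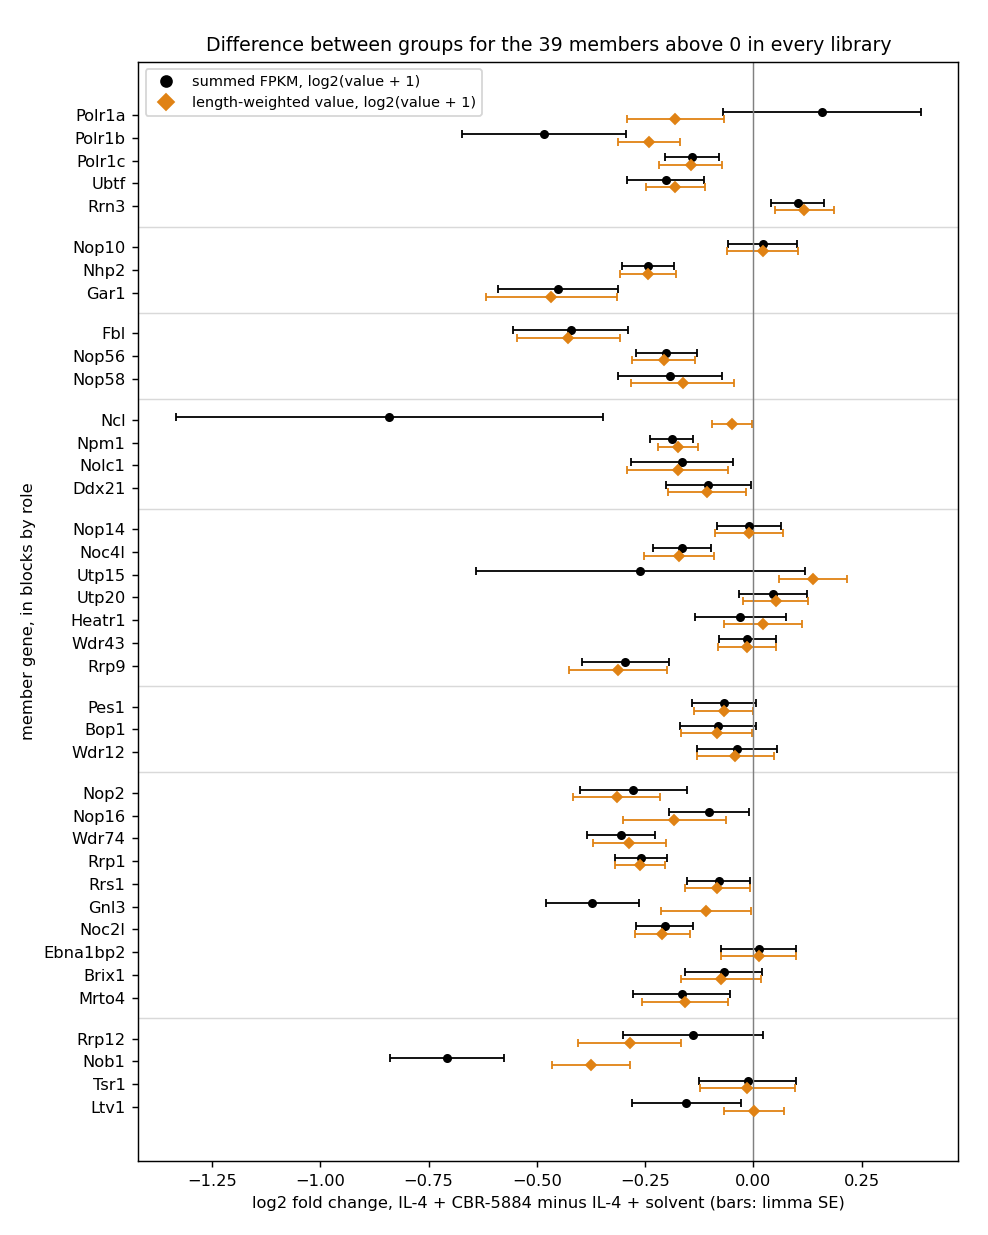
Log2 fold changes, CBR-5884 minus solvent, of the 39 members above 0 in every library, in blocks by role, with limma standard errors as bars. Black points use summed FPKM and orange diamonds the length-weighted value, both on a log2(value + 1) scale, and the points differ most for Ncl (-0.84 and -0.05), Utp15 (-0.26 and 0.14), Polr1a (0.16 and -0.18) and Nob1 (-0.71 and -0.37).

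Assembled transcripts were spread unevenly over the libraries. Assembled transcripts of at least 200 nt and above 0 were present in 3, 7 and 2 members with CBR-5884 and in 5 and 9 members with solvent. The 25 members without an assembled transcript of at least 200 nt had 21 negative and 3 positive fold changes among the 24 tested, with a median of -0.12. Of these, 10 had all treated libraries below both solvent libraries. Among all tested genes 24.9% showed that pattern and 55.7% had negative fold changes. Of the 23 that were also above 0 in every library, 20 were negative and 9 apart, with a median of -0.10.

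Summed over the 41 genes, the members made up 618, 687 and 631 FPKM with CBR-5884 and 732 and 805 with solvent. Without Ncl the sums were 590.1, 659 and 605 against 704 and 718 FPKM, and length-weighted they were 1605, 1764 and 1625 against 1829 and 1830 FPM. By each of the 3 sums every treated library lay below both solvent libraries, and so it did by the sum over all 10770 tested genes, which was 478900 to 480700 FPKM in the treated libraries and 492800 to 496300 with solvent. The members also varied together among the treated libraries. CBR-5884 replicate 4 was the highest of the 3 treated libraries in 31 of the 39 members above 0 (30 when length-weighted) and the lowest in 3, whereas it was the highest for 37.3% of all tested genes above 0. The median coefficient of variation among the treated libraries was 7.88% for these members and 7.12% for all such genes.

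Small nucleolar RNAs lie within introns of some members. The annotation places 21 of them, of 68 to 133 nt, inside 7 of the genes, and 18 were listed at 0 in every library. Snora75 in Ncl was at 10.1 FPKM in CBR-5884 replicate 5 alone, and in Tsr1 Snord91a was at 90.6 FPKM in CBR-5884 replicate 3 and at 229 in solvent replicate 5. The third, Gm22771 in Tsr1, was at 139 in CBR-5884 replicate 5 and at 258 in solvent replicate 3. None was above 0 throughout one group and at 0 in the other, so no comparison was made.

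A wider list of 124 other ribosome biogenesis genes did not share the members' median. Of the 123 tested, 74 had negative and 49 positive fold changes, with a median of -0.04, near that of all genes. Of these genes 0 were called in either direction by limma. An unadjusted limma p below 0.05 was reached by 18 of the 123 as lower (all tested genes, 12.4%) and by 4 as higher (7.24%). In 44 (35.8%) all treated libraries lay below both solvent libraries, against 24.9% of all tested genes. By length-weighted value the median was -0.06. The 45 large subunit factors had the lowest median, -0.07 with 31 negative, and the 42 small subunit factors stood at -0.03 with 25 negative. The 12 tested genes of the RNA exosome, which trims ribosomal RNA ends, had a median of -0.03 with 7 negative, the 15 further polymerase I subunits and factors 0.01 with 7 negative, and the 9 assembly factors of small nucleolar ribonucleoproteins 0.01 (0.005) with 4 negative.

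**Figure D4:**
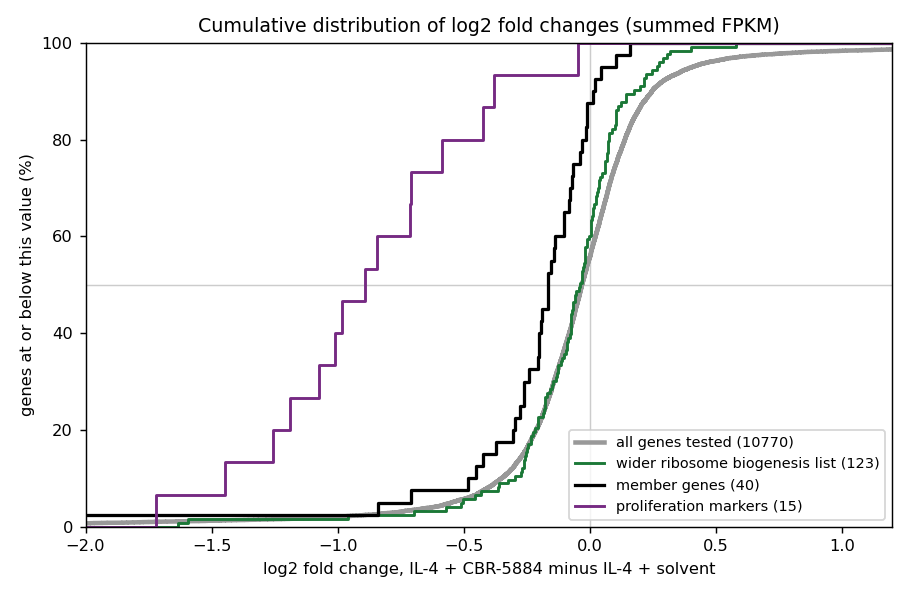
Cumulative share of genes (%) at or below each log2 fold change, CBR-5884 minus solvent, for all 10770 genes tested (grey), the wider list (green, 123), the members (black, 40) and proliferation markers (purple, 15). The curve of the members lies to the left of that of all genes around its middle (medians -0.17 and -0.03), the wider list runs near all genes (median -0.04), and the proliferation markers lie far to the left (median -0.89). The axis stops at -2, beyond which Dkc1 lies.

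The 8 tested genes of the MYC network had a median of -0.02, with 5 negative and 3 positive. By limma 0 of them were called, and 1 in each direction had an unadjusted p below 0.05. Myc was at 12.1, 18.4 and 15.2 FPKM in the treated libraries and at 21.5 and 21.01 with solvent. All treated libraries lay below both solvent ones, with CBR-5884 replicate 4 the highest of the treated libraries here as in most members, and the log2 fold change was -0.47 (SE 0.18, limma unadjusted p = 0.0493, adjusted p = 0.253). Mxi1, which encodes a MAX partner that opposes MYC, had the smallest p of the network and was chosen for mention after its values were seen. It was at 9.41, 9.36 and 9.28 FPKM against 6.22 and 6.62, higher in every treated library (log2 fold change 0.48, SE 0.05, limma adjusted p = 0.0849). By length-weighted value Mxi1 was called as higher, as were 1.02% of all tested genes.

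Proliferation markers were lower alongside the members. All 15 tested markers of the 16 listed had negative fold changes, with a median of -0.89. In 13 of them (86.7%) every treated library lay below both solvent libraries, a pattern of 24.9% of all tested genes. Limma called 1 of them, Ube2c, as lower (all tested genes, 0.176%), and 12 by length-weighted value (all tested genes, 1.68%). Mki67 was at 1.40, 0.972 and 1.35 FPKM in the treated libraries and at 3.22 and 3.62 with solvent. The summed level of the 16 markers was 231 to 259 FPKM with CBR-5884 and 287 to 326 with solvent. Most of it was Pcna, whose groups overlapped, and the other 15 markers summed to 52.0 to 63.2 against 101.8 to 118 FPKM. Their part in the members' values was not tested.

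Cell type markers also differed in places. The 12 macrophage markers, all tested, had 8 negative and 4 positive fold changes with a median of -0.18, near that of the members. In 6 of them (50%) every treated library lay below both solvent libraries, against 24.9% of all tested genes. The complement genes C1qa, C1qb and C1qc (-0.78, -0.50 and -0.44) and Cd14 (-0.27) were lower and Itgam (0.30) and Cd68 (0.19) higher at an unadjusted limma p below 0.05, and 0 of the 12 were called. The 5 monocyte markers, led by Ccr2, summed to 4.31 to 5.19 FPKM with CBR-5884 and to 8.76 to 9.83 with solvent. The 6 fibroblast or stromal markers summed to 10.8 to 17.1 against 17.9 to 18.9 FPKM, highest of the treated libraries in CBR-5884 replicate 4. The 6 dendritic cell markers summed to 0.941 to 1.50 against 1.78 to 2.87 FPKM, and the 7 neutrophil markers to 10.4 to 12.9 against 10.0 to 20.7, with Ly6g at 0 in every library. The part of these markers in the members' values was not tested. The lineages of T, NK and B cells were at or near 0, with a sum of at most 0.116 FPKM over 7 markers and Cd3e, Cd3d, Nkg7 and Ncr1 at 0 in every library. Erythroid markers summed to at most 0.11 FPKM, with 5 of 6 at 0 in every library, and the 5 mast cell or basophil markers to at most 0.447 FPKM.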

How the data were processed

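RNA was measured in 5 libraries, made with a directional kit and sequenced from one end for 75 bp, per the labels' protocols. The authors used Bowtie2, TopHat2 and Cufflinks with mm10 (GRCm38), per the submitters' processing notes; for versions, annotation release and strand handling the sources used here give nothing. The deposited files give one FPKM per reference or assembled transcript, estimated per library, with a deposited 95% interval and coverage, per the file contents. The column that holds these FPKM values also holds other attributes.

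Transcripts were assigned to genes through GENCODE M21 (70923 of 71311 reference transcripts, 99.5%), and assembled ones of at least 200 nt to the gene on their strand with at least 50% of their bases. Of 49341 genes, 95 lacked a transcript in a library. Summed gene FPKM was tested with limma 3.58.1 in R 4.3.3, two-sided and with a variance trend, on values of log2(FPKM + 1). The p-values were adjusted by Benjamini-Hochberg over the 10770 genes with a mean of at least 1 FPKM. The script was tested on simulated data.

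The members, the gene lists, the role blocks and the rule for named genes were chosen with earlier results of these data known. Named with every library's value were members at 0 in a library, called members, those with an unadjusted p below 0.05 or else the smallest p per block, the highest and lowest, those that changed sign with reference transcripts alone, and Myc; others are given as context. Of the wider list, 4 symbols matched through older names. Alternatives were other pseudocounts, filters, scalings and transcript sets, no variance trend, a replicate block, each library left out, and the length-weighted value. Depth is implied by coverage per FPKM, and the reads were not counted here. Proteins were not used here.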

Additional observations from a re-analysis of the deposited data

How the results depend on the processing

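With 20 alternatives, the members' median log2 fold change ranged from -0.23 to -0.093 and was negative in all 20. Some of these could not change the direction of any gene. Leaving out the variance trend alters only standard errors and p-values. Another filter, or leaving out genes listed at 0, alters only which genes are tested. The wider list's median ranged from -0.084 to 0.003, the positive value with quantile normalization. Of 795 member values, 65 changed direction, in 16 genes, and 24 of the 40 tested genes kept theirs in every alternative. The cause was not tested where a value below changes direction, unless the alternative itself removes transcripts or a library.

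The number of members called lower was 1, and it was 0 with a pseudocount of 0.1 (Dkc1, limma adjusted p = 0.0575), with a mean of at least 5 FPKM, with genes listed at 0 left out and with the replicate block (Dkc1, limma adjusted p = 0.331), and 1 to 2 with a library left out, Ncl being called without solvent replicate 3. In the wider list 1 gene was called higher by its most abundant reference transcript, 1 lower with assembled transcripts of any length, and 0 to 1 lower with a library left out. All genes called lower, 19, became 11 with a pseudocount of 0.1, 33 with a mean above 0 FPKM, 6 with a mean of at least 5 FPKM, 1 with genes listed at 0 left out, 1 with the replicate block, 181 by length-weighted value (151 rescaled to the same sum), and 11 to 78 with a library left out. All genes called higher, 5, became 3 with a pseudocount of 5, 3 with a mean of at least 5 FPKM, 19 with reference transcripts alone, 14 by the most abundant reference transcript, 0 with genes listed at 0 left out, 2 with the replicate block, 110 by length-weighted value (112 rescaled), and 8 to 11 with a library left out.

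Summing reference transcripts alone turned Ncl from -0.84 to 0.73, Nolc1 from -0.17 to 0.58, Nob1 from -0.71 to 0.22, Utp15 from -0.26 to 0.08, Wdr74 from -0.31 to 0.059, Ltv1 from -0.16 to 0.038, Heatr1 from -0.03 to 0.036 and Polr1a from 0.16 to -0.37, and the most abundant reference transcript gave the same values. Assembled transcripts of any length gave Utp15 0.48 and Wdr43 0.44, against -0.01 for Wdr43, and moved Heatr1 from -0.03 to -1.47. By length-weighted value, unscaled and rescaled, Utp15 was at 0.14 and 0.15, Polr1a at -0.18 and -0.17, Heatr1 at 0.022 and 0.035 and Ltv1 at 0.002 and 0.014, and Nop14 was at 0.002 when rescaled. On the TPM scale, with quantile normalization and with median ratios, Heatr1 was at 0.011, 0.018 and 0.006, Nop14 at 0.031, 0.034 and 0.025, Tsr1 at 0.028, 0.028 and 0.022, and Wdr43 at 0.028, 0.029 and 0.022. Wdr12 was at 0.0 on the TPM scale and 0.005 with quantile normalization.

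With a library left out, fold changes that changed direction ranged from -0.19 to 0.049 for Brix1, -0.035 to 0.079 for Ebna1bp2, -0.13 to 0.071 for Heatr1, -0.34 to 0.025 for Ltv1, -0.065 to 0.11 for Nop10, -0.096 to 0.076 for Nop14, -0.024 to 0.34 for Polr1a, -0.11 to 0.052 for Tsr1, -0.78 to 0.26 for Utp15, -0.009 to 0.082 for Utp20, -0.082 to 0.031 for Wdr12 and -0.056 to 0.023 for Wdr43.

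Replicates 3 and 5 carry the same numbers in both groups, but libraries with the same number did not deviate together by much (r = 0.07 and 0.082 across 10770 genes), and nothing states that a number marks a shared source. With the replicate block, which leaves 1 residual degree of freedom, the members' median was -0.23, 39 of 40 were negative and 0 were called. CBR-5884 replicate 4 has no solvent library of its number, so the block takes its fold changes from replicates 3 and 5 alone. The fit without CBR-5884 replicate 4 gave the same median and the same 39 negative, so for fold changes the block is not a separate alternative. The block gave Ebna1bp2 -0.035, Nop10 -0.02, Polr1a -0.024 and Utp20 -0.009. Depth limits the lowest members most, such as Gar1 at 144 implied fragments in a library.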
